A study of Drosophila melanogaster with 4 samples.

Results

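The genes wg, dpp, hh, en and inv direct pattern formation in the fly, and their loci were examined for enrichment of LSD1 in heads of adult flies. Regions of significant enrichment were taken where they overlapped, by at least 1 bp, a window of fly genome release 5 around wg (2L:7300000-7322000), dpp (2L:2420000-2465000), hh (3R:18945000-18975000) or the neighbouring pair inv and en (2R:7355000-7430000). The 4 windows span 172 kb. They held 3 of the 8115 regions of replicate 1, 4 of the 9911 regions of replicate 2 and 5 of the 11016 regions of the combined list. That is 12 of 29042 list entries, in which a site listed more than once is counted each time. The windows were set by coordinates, and no release 5 annotation was used here to check where the genes lie inside them.

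Flies of the wild-type strain Oregon-R were kept in population cages, and their heads were collected with sieves from animals labelled as mixed adults. Chromatin was crosslinked with formaldehyde and precipitated with the LSD1 antibody Q3430. The series has 2 ChIP samples and 2 samples of input, which is chromatin that was not precipitated, and no second genotype, tissue or treatment. No label tells separate collections of heads from repeat preparations, so the spread between replicates may be technical. The combined list was made from these replicates and is not a further measurement. A head is a mixture of neurons, glia, eye, fat body and other cells, and the lists give 1 value for that mixture.

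LSD1, encoded in flies by Su(var)3-3, removes methyl groups from the tails of histones and works in complexes with CoREST and histone deacetylases. The genes wg, dpp and hh encode secreted ligands of the Wnt, BMP and Hedgehog families. The genes en and inv encode related homeodomain transcription factors, lie side by side and are expressed in the same posterior compartment cells, where en switches on hh. Hedgehog in turn signals to neighbouring cells, which maintains wg in the embryonic segment and dpp in the imaginal discs. All of them are textbook targets of Polycomb group silencing outside their own expression domains.

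At each of the 4 loci, LSD1 regions covered less than in the median window of that size on the arm. Over the 4 windows together, enriched regions covered 2.73% of the sequence in replicate 1 and 3.92% in replicate 2, against 26.7% and 30.1% of the arms 2L, 2R and 3R. The mean was 3.32% ± 0.840 in the windows and 28.4% ± 2.41 on the arms (SD, n = 2 each), so that the windows reached 0.102 times the share of the arms in replicate 1 and 0.130 times in replicate 2. In the combined list the windows were covered over 5.34% and the arms over 37.3%. These shares pool the windows by size, and inv and en, empty in both replicates, makes up 75 of the 172 kb. The pooled ratio thus does not hold for each locus, and the arm shares exceed those of the median windows given below. Both replicates lay below the arms. The SD is the spread between replicates and does not measure how coverage varies from locus to locus along an arm. Of the covered sequence in the windows, the dpp window alone held 67.7% (replicate 1), 99.4% (replicate 2) and 71.7% (combined list).

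These shares were not tested, because with 2 replicates the smallest two-sided p of an exact sign-flip test is 0.5. Instead each window was set beside every window of its size on its own arm, taken at steps of 1 kb. None of the 4 loci was covered over at least 50% in any list, a share that 15.5% to 22.6% of arm windows reached in the replicates (20.1% and 22.6% for windows of the size of wg, 17.7% and 20.1% for dpp, 18.4% and 22.2% for hh, 15.5% and 18.9% for inv and en, each for replicates 1 and 2). With the combined list it was 32.5%, 31.1%, 33.1% and 30.2% in the same order of loci. The arm windows overlap each other, so their shares are a description. Read against them, the inv and en window was the one in the low tail, whereas wg, dpp and hh lay in the lower part of a range in which windows with few or no regions are common. The windows differ in size, which limits this contrast. Of windows of the size of wg, 26.2% and 20.5% were empty in replicates 1 and 2. The wg window, itself empty, could therefore not have ranked in such a tail.

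**Figure D1:**
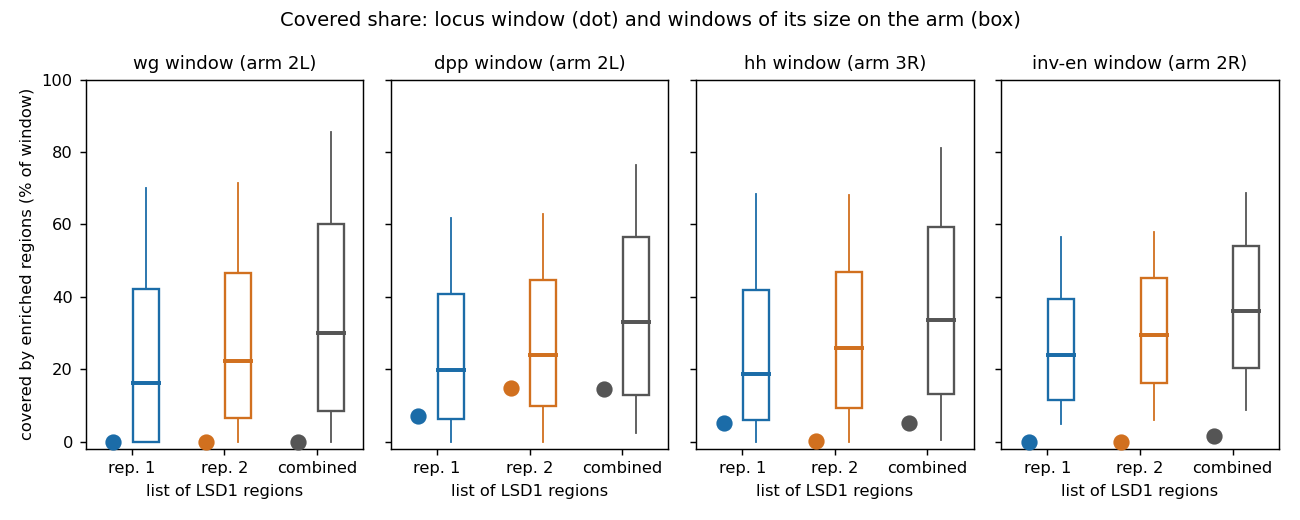
Share of each locus window covered by LSD1 regions (dots, percent of the window) for replicate 1, replicate 2 and the combined list, beside windows of the same size on the same arm (thick line, median; box, 25th to 75th percentile; whiskers, 10th to 90th). The dots of every locus lie below the arm medians in every list, with inv and en at 0% in both replicates against arm medians of 24.0% and 29.3%.

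The wg window held no region in any of the 3 lists. Gene wg (Dmel_CG4889) encodes Wingless, the founding Wnt ligand of the fly. Its covered share was 0% in each list, where the median window of 22 kb on 2L was covered over 16.3%, 22.2% and 30.1%. Windows without a region were nevertheless frequent on this arm, making up 26.2% of 22946 windows by replicate 1, 20.5% by replicate 2 and 17.3% by the combined list. An empty window of this size was therefore not rare on 2L.

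The wg window lay inside a long stretch without regions. Replicate 1 had no region between 7282706 and 7387168 on 2L, and replicate 2 had none between 7282668 and 7386855. These stretches are 104.5 and 104.2 kb long (104.3 ± 0.194 kb, SD, n = 2). Their ends differed by 38 bp on the side of lower coordinates and by 313 bp on the other. The stretch of replicate 1 ranked 18 of 1500 by length on the arm, and that of replicate 2 ranked 13 of 1906, where the medians were 3.89 and 2.81 kb. A long stretch takes up more of the arm than a short one, so the share of bases is the fitting measure: stretches at least as long held 13.0% of the bases of 2L in replicate 1 and 9.01% in replicate 2. In the combined list the stretch was 94.8 kb long and ended at a narrow region of 1049 bp, with 10.8% of bases in stretches at least as long.

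A region of high score bounded the empty wg stretch at lower coordinates in both replicates, and at higher coordinates in replicate 2. On the side of lower coordinates it was 2L:7280375-7282705 in replicate 1, which scored 1.33, higher than 98.0% of the regions of the arm. Its counterpart at 2L:7280543-7282667 in replicate 2 scored 1.18, higher than 93.8%. The score is the authors' value for each region, used here to rank regions within a list. On the other side the first region lay at 2L:7387169-7389265 in replicate 1 and at 2L:7386856-7389296 in replicate 2. Their scores were 0.57, higher than 29.5% of the regions of the arm, and 1.44, higher than 98.8%. In gene order wg lies between CG31909 and Wnt6, another Wnt gene. The 100 kb before the window were covered over 38.4% in replicate 1 and 33.7% in replicate 2, and the 100 kb after it over 2.10% and 7.97%, so the sparse sequence continued on the side of higher coordinates.

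Coverage at dpp (Dmel_CG9885), which encodes the BMP ligand Decapentaplegic, was confined in these lists to the first part of its window. The window was covered over 7.05% by replicate 1, 14.9% by replicate 2 and 14.7% by the combined list, a replicate mean of 10.96% ± 5.53 (SD, n = 2). The median window of 45 kb on 2L was covered over 19.8%, 24.0% and 33.0%. Of the arm windows, 26.9%, 33.3% and 27.2% were covered no more than the dpp window in these lists, so dpp lay in the lower part of the range and not at its end.

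The dpp regions were between 1398 and 3150 bp wide, and most had low scores for the arm. Replicate 1 listed 2L:2420103-2421878 and 2L:2423158-2424555, both with a score of 0.44 and ranked above 9.15% and 9.02% of the regions of the arm. Replicate 2 listed 3 regions. The first, 2L:2420226-2421647, scored 0.52 and ranked above 6.00% of the arm. The second, 2L:2422442-2424563, scored 0.84 and stood near the middle of the arm, above 53.9% of its regions. The third, 2L:2428300-2431449, scored 0.62 and ranked above 13.2%, and its width of 3150 bp exceeded that of 69.96% of the regions of the list. Both regions of replicate 1 thus had a partner in replicate 2, and the third region of replicate 2 had none.

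The edges of the dpp partners varied. In the first pair the starts differed by 123 bp and the ends by 231 bp. In the second pair the starts differed by 716 bp and the ends by 8 bp. Of the 7048 bp covered in either replicate, 2820 bp were covered in both, which is 40.0% and lies near the median of 48.2% for arm windows that hold a region. These shared bases made up 88.8% of what replicate 1 covered in the window and 42.1% of what replicate 2 covered.

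The combined list repeated the 3 positions of replicate 2, at 2L:2420030-2421948, 2L:2422608-2424656 and 2L:2428750-2431376. Their scores were 0.38, 0.51 and 0.38, above 18.7%, 59.1% and 19.8% of the regions of the arm. Beyond the last of them, from 2431450 to 2468790, no list had a region, and 33.6 kb of this stretch lay inside the window. In gene order CG44139 precedes dpp and Slh follows it. Which of these regions lie in dpp and which in its neighbours was not determined. The flanks of the dpp window were fuller, with 25.4% ± 8.83 of the adjoining 100 kb on both sides covered in the replicates (SD, n = 2), and held no region of 8 kb or more.

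**Figure D2:**
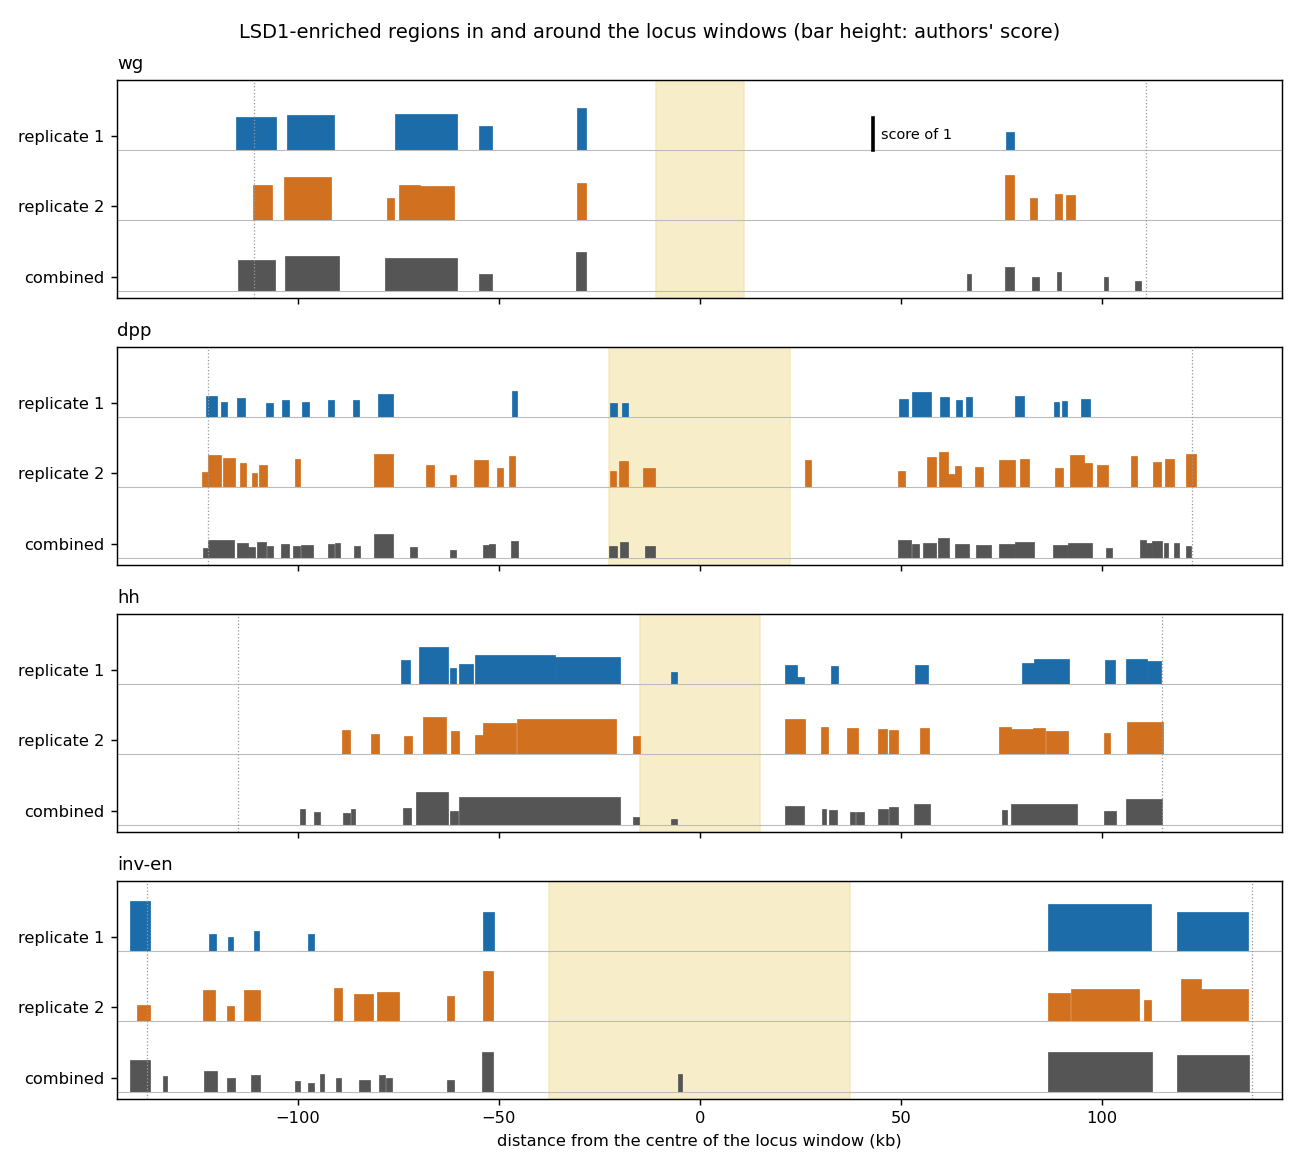
LSD1 regions within 100 kb of each locus window (shaded; dotted lines mark the limits of the 100 kb flanks), by distance in kb from the centre of the window, for replicate 1, replicate 2 and the combined list. The height of a bar is the authors' score, drawn to 1 scale in all panels. The wg window is empty in every list, the inv and en window is empty in both replicates, and wide regions of 8 kb or more stand outside the windows at wg, hh and inv and en.

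The hh window held few regions and adjoined densely covered sequence on the side of lower coordinates. Gene hh (Dmel_CG4637) encodes the Hedgehog ligand. Its window was covered over 5.06% by replicate 1, 0.137% by replicate 2 and 5.02% by the combined list, a replicate mean of 2.60% ± 3.48 (SD, n = 2). The median window of 30 kb on 3R was covered over 18.8%, 25.8% and 33.7%. Of the arm windows, 21.7%, 13.1% and 13.7% were covered no more than the hh window in these lists.

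Each replicate listed a single region at hh, and the positions did not overlap. In replicate 1 it was 3R:18952755-18954271, 1517 bp wide with a score of 0.37, above only 4.01% of the regions of the arm. In replicate 2 it was 3R:18943434-18945040, with a score of 0.60, above 11.7%. This second region reached only 41 bp into the window, and its counterpart in the combined list, 3R:18943324-18944928, ended 72 bp short of the window and was not counted. The combined list had 3R:18952750-18954256 instead, with a score of 0.19, above 1.53% of the arm. Covered bases shared between the replicates amounted to 0 of 1558 bp, where the median arm window with a region had 47.0% shared. No region inside the hh window was therefore found in both replicates.

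Wide regions of both replicates overlapped each other just before the hh window. Replicate 1 had a pair of adjoining wide regions, 3R:18904000-18924045 (20.0 kb, score 0.92) and 3R:18924053-18940172 (16.1 kb, score 0.84). Replicate 2 covered most of the same sequence with 3R:18906065-18914338 (8.27 kb, score 0.99) and 3R:18914410-18939107 (24.7 kb, score 1.11), and the combined list with a single region of 40.0 kb that scored 0.86. The last of these wide regions ended 4.83 kb before the window in replicate 1 and 5.89 kb before it in replicate 2. On the other side the first region began 6.24 kb after the window in replicate 1 and 6.17 kb after it in replicate 2, and the positions of these starts differed by 70 bp. In gene order hh lies between CG31457 and unk.

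The hh window had the fullest surroundings of the 4 loci in both replicates. The adjoining 100 kb on both sides were covered over 44.1% ± 3.85 in the replicates (SD, n = 2), against 20.5% ± 0.433 around wg, 25.4% ± 8.83 around dpp and 29.8% ± 4.77 around inv and en, and differences between loci were not tested. On the side of lower coordinates the share was 50.5% and 50.1% in replicates 1 and 2, and on the other side 32.3% and 43.5%. The empty stretch with most bases inside the hh window was 27.0 kb long in replicate 1 and 36.1 kb in replicate 2, where the medians on 3R were 4.04 and 3.06 kb. It ranked 206 of 1828 by length in replicate 1 and 107 of 2367 in replicate 2. Stretches at least as long held 39.0% and 24.3% of the bases of 3R.

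The pair inv (Dmel_CG17835) and en (Dmel_CG9015) had the emptiest window relative to its arm. The 75 kb window held no region in replicate 1, none in replicate 2 and 1 in the combined list, with covered shares of 0%, 0% and 1.45%. The median window of 75 kb on 2R was covered over 24.0%, 29.3% and 36.1%. Only 4.13% of 20922 arm windows were without a region in replicate 1 and 3.53% in replicate 2, and 3.01% were covered no more than the inv and en window in the combined list. Those 4.13% and 3.53% are the lowest such shares among the 4 loci, whose windows differ in size.

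The single combined region, 2R:7387090-7388180, was 1091 bp wide and was overlapped by a region of neither replicate. It is narrower than the narrowest replicate region, which was 1301 bp in each replicate list, whereas the combined list held regions down to 1001 bp. Its score of 0.56 was above 67.0% of the regions of the arm, so it differed from the hh regions in rank.

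The empty stretch at inv and en reached well beyond the window and ended at nearly the same positions in both replicates. It ran from 7341326 to 7479237 on 2R in replicate 1 and from 7340953 to 7479172 in replicate 2, which is 137.9 and 138.2 kb (138.1 ± 0.218 kb, SD, n = 2). The ends differed by 373 bp and 65 bp. By length it ranked 6 of 1444 stretches on 2R in replicate 1 and 4 of 1905 in replicate 2, and stretches at least as long held 5.55% and 4.13% of the bases of the arm. In the combined list the narrow region above divided it, and the longer piece of 90.9 kb still ranked 8 of 1943.

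**Figure D3:**
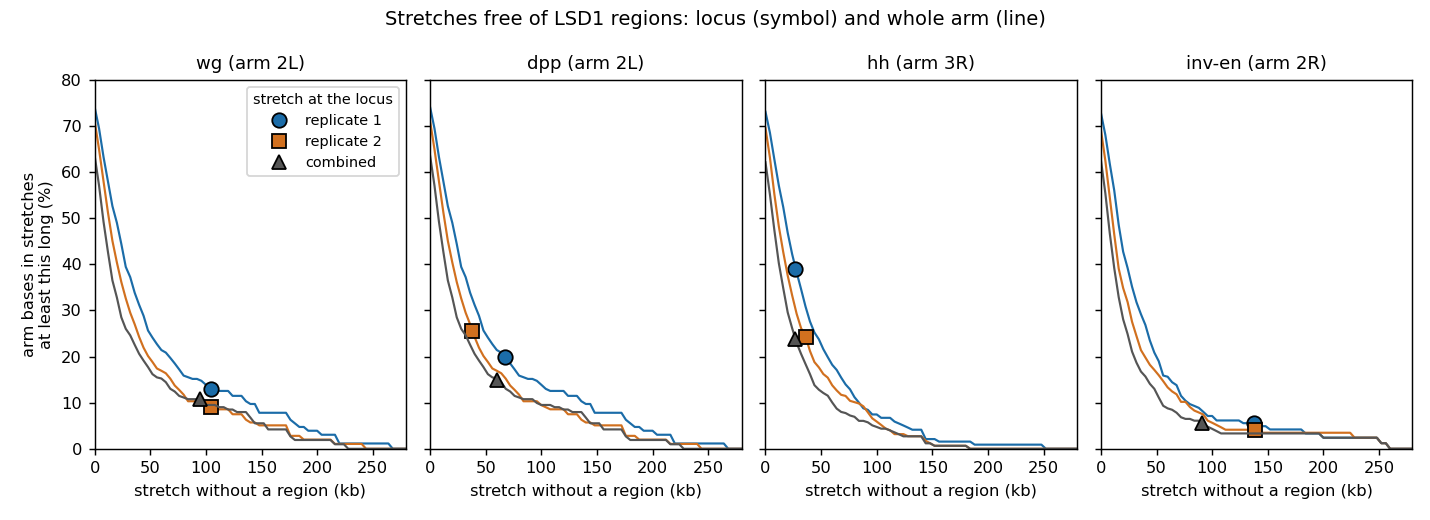
Length in kb of the region-free stretch with the most bases inside each locus window (symbols), on curves that give the percent of bases of the arm lying in region-free stretches of at least the length on the x axis, for each list. The inv and en stretch of 137.9 and 138.2 kb in the replicates lies where 5.55% and 4.13% of bases of 2R remain, whereas the hh stretch lies where 39.0% and 24.3% of bases of 3R remain.

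The region before the inv and en stretch had a high score in both replicates, and the one after it in replicate 1. Before it lay 2R:7338480-7341325 in replicate 1, with a score of 1.24 (above 96.9% of the arm), and 2R:7338453-7340952 in replicate 2, with 1.61 (above 99.6%). After it, replicate 1 had a wide region, 2R:7479238-7504879, of 25.6 kb and a score of 1.49 (above 99.0%). Replicate 2 began at 2R:7479173-7484681, with 0.89 (above 62.8%), followed by 2R:7484859-7501826, with 1.04 (above 82.4%). In gene order E(Pc) precedes inv, and tou follows en. Covered shares in the 100 kb before the window were further apart, at 9.64% in replicate 1 and 25.4% in replicate 2, than in the 100 kb after it, at 43.2% and 40.9%.

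Regions listed at dpp and hh mostly had low scores for their arm. In the dpp window the length-weighted mean score of replicate 1 was 0.44, that of replicate 2 was 0.67 and that of the combined list 0.42, where the median arm window with a region had 0.75, 0.89 and 0.60. In the hh window it was 0.37, 0.60 and 0.19, against 0.73, 0.88 and 0.57. The hh value of replicate 2 comes from the region that reaches only 41 bp into the window. In these lists 3.14%, 6.93% and 7.07% of arm windows with a region scored below dpp, and 1.67%, 3.75% and 0.662% below hh. The combined score at inv and en had 35.4% of arm windows below it, although its region ranked above 67.0% of single regions. The combined median on 2R was 0.63 for arm windows and 0.48 for single regions. Arm medians were higher for windows than for single regions at dpp and hh too, so the 2 kinds of rank are not alike. The wg window had no score in any list.

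**Figure D4:**
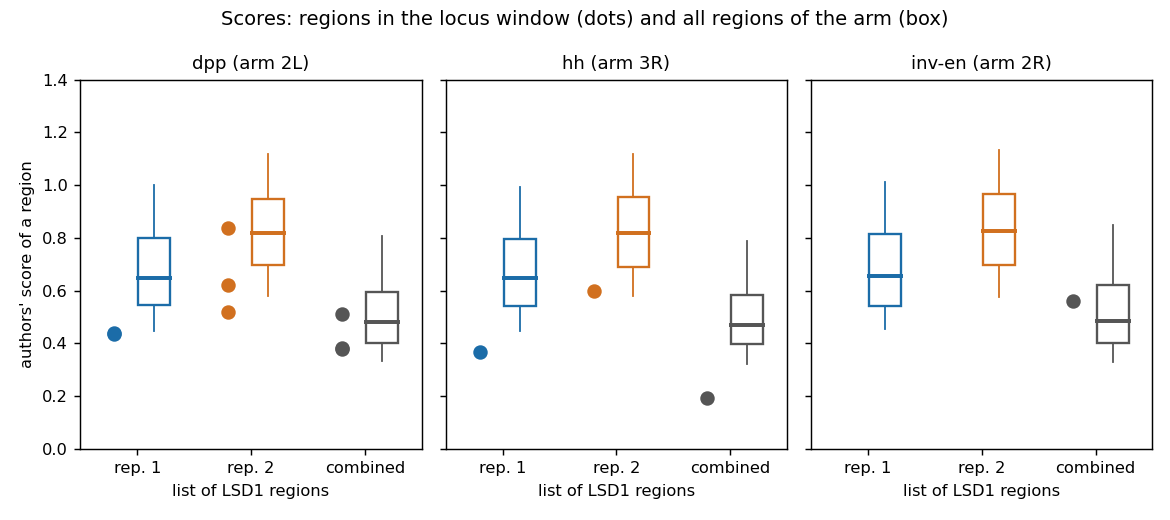
Authors' score of each region in the dpp, hh and inv and en windows (dots) beside all regions of the same arm (thick line, median; box, 25th to 75th percentile; whiskers, 10th to 90th), for each list. Both dpp dots of replicate 1 coincide at 0.44, as do the outer combined ones at 0.38. The hh dots lie at 0.37, 0.60 and 0.19, and the region at 0.60 has only 41 bp inside the window. The wg window had no region and is not drawn.

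A missing region does not show that LSD1 was absent. The lists hold only what passed the caller's threshold, the depth of the libraries was not used here, and no signal outside regions was used. Entries typed as depletion numbered 3 in the combined list, and 0 of them lay in the 4 windows. Fewer cells with LSD1 at a locus and less LSD1 per cell cannot be told apart in whole heads.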

How the data were processed

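LSD1 occupancy was measured by ChIP-seq in 2 ChIP and 2 input samples of adult heads. Bowtie 0.12.7, an aligner, is listed in the submitters' processing notes, and coordinates are of genome release 5, per the file headers. The region caller, its threshold, the making of the combined list and the reads per library were "not given in the sources used here". Depth is thus unknown, and intervals that depend on it are left out. The score of each region is the authors' deposited value, with no scale named in the headers. It was ranked within a list. Means over the replicates' scores were used only for the alternatives, and since lists may differ in scale they are means of deposited values. Each input is labelled as the control of the ChIP list of the same number.

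Covered share is the percent of bases of a window under enriched regions. It was compared with all windows of equal size on the same arm at 1 kb steps that did not overlap the locus. A percentile counts arm windows or regions with a lower value plus an equal split of ties. Covered bases of a window and of the windows compared with it were checked on simulated lists. Percentiles and score weighting were not checked against known answers. Python 3.11.15 and numpy 2.4.6 were used. Gene order came from a RefSeq table of release 6, from which names alone were taken because the builds differ. All 5 genes matched by symbol. Planned motif counts in promoters were not run, as no sequence of these loci was used here. Every region in a window was named. The genes, windows and alternatives were chosen with earlier results of these data known. Alternatives covered the part of each list by score, window limits, background windows, score weighting and each replicate.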

Additional observations from a re-analysis of the deposited data

How the results depend on the processing

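Of 57 alternatives over 12 results, 41 stayed within the replicate SD (or, for the share of bases in both replicates, which has none, gave an equal value) and 16 moved the value. Some of the 41 could not move. With 2 replicates, leaving out a replicate always stays within their SD. Likewise, the covered share of an empty window stays at 0% when regions are removed. The count is therefore not a measure of robustness. Covered share moved at dpp to 2.36% with the upper 50% of each list by score, at hh to 26.6% and at inv-en to 2.37% in a window widened by 50% of its width on each side, and at inv-en to 1.45% in the combined list. The wider hh window takes in the wide regions beside it, so the low share at hh depends on the window limits. Leaving out a replicate gave 7.05% to 14.9% at dpp and 0.137% to 5.06% at hh, and 0% at wg and inv-en. The percentile among arm windows, 11.7 for wg, 30.1 for dpp, 17.4 for hh and 1.91 for inv-en, became 0, 20.4, 2.82 and 0 against windows with a region only. For wg and inv-en this 0 was fixed in advance, because an empty window ranks below every window with a region. Leaving out empty windows could only lower the percentiles of dpp and hh. With the upper 50% by score it became 21.8 for wg, 23.6 for dpp and 6.10 for inv-en, and with windows of 4 autosome arms 2.57 for inv-en. The mean score at hh was 0.48 over the replicates and 0.19 in the combined list. The combined list has lower scores in general (median 0.51, against 0.70 and 0.83 in replicates 1 and 2), so the 2 values may not share a scale. The replicate mean also joins 2 regions that do not overlap. Ranked within a list, 1.67% and 3.75% of arm windows with a region scored below hh in replicates 1 and 2. In the combined list it was 0.662%. Shared bases moved at dpp to 40.1% with gaps of up to 1 kb closed and to 33.3% in the wider window, and at hh to 74.6% in the wider window. Except where the construction shows it, the cause was not tested. A replicate mean score and shared bases could not be given for wg or inv-en, whose windows are empty in both replicates, nor a replicate mean at hh from regions mostly inside the window, which replicate 2 lacks. No paired analysis was possible because the results come from no test.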
